A study of Homo sapiens with 6 samples.

Results

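ABCA1 and the cholesterol efflux genes around the liver X receptors (LXRs) were followed in BT-549 cells that had received either adipocyte-conditioned media (ACM) or the unconditioned control (UCM). The 7 members came as a list of names and were matched by symbol, out of 63140 genes in the deposited tables. They are the transporters ABCA1, ABCG1 and ABCA7, the receptors NR1H3 (LXR alpha) and NR1H2 (LXR beta), and the LXR targets APOE and SMPDL3A. The members were not picked by a threshold on these data, although earlier results of the same libraries were known when they were listed.

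BT-549 is an established triple negative breast cancer line, and every library came from WT cells without a transgene. Polyadenylated RNA was sequenced after 24 h from 3 ACM and 3 UCM samples seeded in a 6-well plate, which addressed how adipocyte secretions change transcription in breast cancer cells. ACM was a medium with insulin, oleate, albumin and little serum collected from OP9 cultures during adipocyte differentiation, and since OP9 is a mouse line the secretions are of mouse origin. The labels give 50% ACM, whereas the methods describe it undiluted, and the formula of UCM is not given in the sources used here, so the base medium and the secretions cannot be told apart as the source of any difference. The cells had been maintained in RPMI-1640 with tetracycline-system serum and insulin in both groups. Whether the replicates were more than parallel wells is not given, so p-values measure the spread between these samples, which may be technical. The replicates were also unevenly alike. Between the counts of UCM replicates 2 and 3 the chi-square per degree of freedom was 2.35. In every other pair of the same condition it was 13.2 to 21.4, so the spread within UCM rests largely on replicate 1.

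Expected counts summed to between 17135270 and 21053214 per library, and 14451 genes passed the filter on low counts. Libraries of the same condition lay together on the first principal component (39.8% of the variance), while replicate 1 of both conditions stood apart on the second (24.8%). The mesenchymal genes VIM, SPARC and CD44 were abundant in each library. Of 3 breast receptor genes, ESR1 and PGR had 0 counts, whereas ERBB2 was detected in every library, at 1253 to 1564 counts. The epithelial keratins KRT8 and KRT18 had at most 14 counts, although the labels call the cells epithelial. Of 7 adipocyte markers, 6 had at most 13 counts in every library, with ADIPOQ, LEP, CIDEC and RETN at 0, and the list summed to 2.08 to 3.1 CPM (read counts scaled to a common library total with edgeR's TMM factors) in ACM and 1.4 to 1.92 in UCM, nearly all from CFD. Of 7 macrophage markers, 6 had at most 13 counts, with LYZ at 0, and the list summed to 13.1 to 30.1 CPM in ACM and 6.08 to 7.44 in UCM, nearly all from the lysosomal gene CD68.

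LXR alpha and LXR beta are nuclear receptors that bind oxidized cholesterol derivatives and, paired with a retinoid X receptor (RXR), act on genes that remove sterol from the cell. ABCA1 hands cholesterol and phospholipid to lipid-poor apolipoproteins, ABCG1 passes cholesterol on to larger lipoprotein particles, and APOE is a secreted acceptor. When sterol is scarce, the SREBP2 pathway runs the opposite programme, of cholesterol synthesis and uptake.

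ABCA1 was the member that rose in ACM, and the genes for both receptors that are known to drive it did not pass the test. The counts of the 3 ACM libraries were 563, 752 and 475, and those of the 3 UCM libraries were 90, 37 and 37. In CPM, ABCA1 stood at 26.8, 42.4 and 25.8 in ACM (31.6 ± 9.29, SD, n = 3) and at 4.26, 1.99 and 2.16 in UCM (2.80 ± 1.27, SD, n = 3). Every ACM library lay above every UCM library, with ACM replicate 2 the highest and UCM replicate 1 the highest of its group. The lowest ACM value was still 6.05 times the highest UCM value, while the UCM values spread over a range of 2.14-fold. Its log2 FC in edgeR was 3.47 (SE 0.34, 95% interval 2.67 to 4.27, adjusted p = 0.00401), a fold change of 11.1 with an interval from 6.38 to 19.3, and it ranked 10 from the top among the 14451 genes tested. CD68, named above, moved with it, at 12.1, 29.1 and 16.03 CPM in ACM and 6.59, 4.79 and 5.36 in UCM (log2 FC 1.76, adjusted p = 0.0335 from edgeR), and its part in the ABCA1 difference was not tested. The CD68 call itself was lost without any 1 of the UCM replicates 1, 2 and 3 (adjusted p 0.0772, 0.16 and 0.152). In bulk RNA, more cells with ABCA1 transcript and more transcript per cell cannot be told apart.

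ABCA1 (ENSG00000165029.17) lies on the minus strand of chromosome 9 at chr9:104781006-104928155 of GRCh38, with 50 exons in its canonical transcript. The 250 bases before its start, chr9:104928156-104928405 on the minus strand (RefSeq, GRCh38.p14), are shown because ABCA1 was the member that changed. Capitals mark, from left to right, a GC box, a second GC box, an E-box, a further GC box, a window like the LXR element on the reverse strand, and a TATA box.
ABCA1 promoter: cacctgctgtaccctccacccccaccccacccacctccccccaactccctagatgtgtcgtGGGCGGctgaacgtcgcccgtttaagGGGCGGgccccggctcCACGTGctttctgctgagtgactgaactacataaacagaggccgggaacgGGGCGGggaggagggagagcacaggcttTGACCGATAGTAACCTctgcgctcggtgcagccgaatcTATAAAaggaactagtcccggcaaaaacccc
The LXR element is a direct repeat spaced by 4 bases (DR4), searched on both strands as AGGTCA, any 4 bases and AGGTCA again, and the E-box was searched as CACGTG, the GC box as GGGCGG and the TATA box as TATAAA. The DR4-like window, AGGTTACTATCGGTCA when read on its own strand, has 2 mismatches to the element and spans from 69 to 54 bases before the start (chr9:104928209-104928224). Windows with at most 2 mismatches occurred in 2.34% of 35116 RefSeq promoters. Each of these ran from 250 bases before to 50 after a start, and so was longer than the stretch shown. CACGTG occurred in 7.26% of them, GGGCGG in 45.0% and TATAAA in 11.5%, with both strands searched for each motif and no overlap between the motifs in the ABCA1 promoter. A match of letters describes the sequence and does not show that a receptor binds there.

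RefSeq promoters were at hand for 5 of the 7 members, and none was found in the table used here for ABCG1 and SMPDL3A. The closest DR4 windows of ABCA1 and of the other members are set side by side, in capitals at the hexamer positions and lower case in the spacer, to show how far each stands from the element.
ABCA1: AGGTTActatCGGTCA
ABCA7: AGGTCGcccaATAGCA
NR1H2: GGCTCAgagaAGCGCA
APOE: TGGTCAaaagACCTCT
Those of ABCA7 (chr19:1040045-1040060), NR1H2 (chr19:50376234-50376249) and APOE (first of 3 promoters, chr19:44905623-44905638) each had 4 mismatches, and the 4 promoters of NR1H3 had 4 or 5. Windows further away, in introns or enhancers, were not searched.

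The length that RSEM assigned to ABCA1 also differed between libraries, which bears on its TPM, a level per unit of length. Its effective length, a mean over transcripts weighted by their abundance in a library, was 9796, 10129 and 8567 bases in ACM and 8272, 8071 and 8132 in UCM. All 3 ACM lengths lay above the UCM lengths, a difference of 0.22 on the log2 scale (exact permutation test, two-sided, p = 0.1, the smallest that 3 against 3 allows, adjusted p = 0.2 over the 6 members with counts). The share of all genes with lengths so separated was not counted. The gene table lists 5 ABCA1 transcripts, of which those of 10413 and 10408 bases are full length and those of 1540, 923 and 807 bases are short. ABCA1 TPM was 3.87, 5.79 and 4.35 in ACM and 0.75, 0.35 and 0.38 in UCM, so that the ratio of the means was 9.47 in TPM and 11.3 in CPM. Adding 1 to the TPM before taking logs compresses such low values, and the log2 difference on that scale was 1.92 (exact permutation test, two-sided, p = 0.1, adjusted p = 0.3 over the 6 members with counts).

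**Figure D1:**
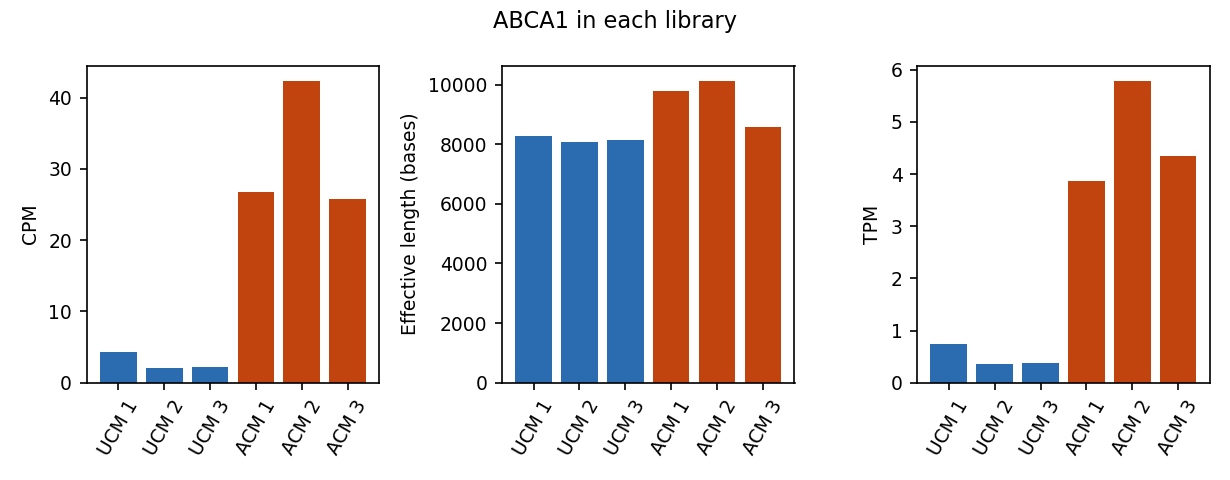
ABCA1 in each of the 3 UCM (blue) and 3 ACM (orange) libraries as CPM, effective length in bases and TPM, each bar being 1 library on an axis from 0. The ACM bars stand above the UCM bars on all 3 scales, from 25.8 to 42.4 CPM against 1.99 to 4.26, and the lengths differ far less than the levels.

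ABCA7, the closest relative of ABCA1 among the members and a lipid transporter linked to phagocytosis, had a higher mean in ACM but did not pass the test. ACM libraries held 356, 296 and 229 counts of it and UCM libraries 281, 197 and 199, or 16.9, 16.7 and 12.4 CPM against 13.3, 10.6 and 11.6. The groups overlapped, because ACM replicate 3 lay under UCM replicate 1. The log2 FC of 0.37 (SE 0.15, 95% interval 0.04 to 0.71) had an unadjusted p of 0.0321 and an adjusted p of 0.169 from edgeR. In TPM, ABCA7 stood at 8.84, 8.09 and 7.08 in ACM and 6.74, 4.25 and 5.18 in UCM. There the groups did not overlap, and the share of all genes that separate in TPM was not counted. With 1 added to TPM, the log2 difference was 0.51 (exact permutation test, two-sided, p = 0.1, adjusted p = 0.3). ABCA7 effective lengths were lower in ACM, at 2707, 2852 and 2541 bases in ACM and 2864, 3515 and 3208 in UCM. Their log2 difference was -0.24 (exact permutation test, two-sided, p = 0.1, adjusted p = 0.2). ABCA7 (ENSG00000064687.13) covers chr19:1039997-1065572 on the plus strand, with 18 transcripts in the gene table from 389 to 6883 bases.

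ABCG1, the partner of ABCA1 in efflux from many cells, was not detected. Its gene (ENSG00000160179.19, chr21:42199689-42297244, plus strand) had 0 counts in all 6 libraries and was not tested. A count of 0 allows up to 0.1425 CPM in the deepest library and 0.1751 CPM in the shallowest (3 counts, counting error only), both well under the lowest ABCA1 value. Among protein-coding genes, 20.7% had 0 counts in all 6 libraries, so a gene at 0 is common here.

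The receptor genes showed a large gap in level between the 2 LXRs and little difference between the media. NR1H2 was the most abundant member, at 1203, 1073 and 1016 counts per ACM library and 1057, 1133 and 988 per UCM library, or 57.6 ± 2.64 CPM against 56.2 ± 5.55 (SD, n = 3). The groups overlapped, and the log2 FC of 0.04 had a 95% interval from -0.16 to 0.23 (adjusted p = 0.849 from edgeR), with a sign that turned on the TPM scale (-0.007). NR1H3 was counted 32, 24 and 30 times with ACM against 25, 28 and 19 times with UCM, or 1.501 ± 0.14 CPM against 1.27 ± 0.21, and these groups overlapped too. At that depth its log2 FC of 0.24 had a wide interval, from -0.46 to 0.95 (adjusted p = 0.701 from edgeR), which does not show that the level was alike. In TPM, NR1H2 exceeded NR1H3 by 16.9 to 25.1 times in the ACM libraries and by 16.9 to 35.3 times in the UCM libraries. LXR beta transcript was therefore the more abundant of the 2 in each library, with ranges of the ratio that overlapped between the media.

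Both receptor genes have neighbours on the opposite strand, which matters because the counting is not stated to use strand. NR1H3 (ENSG00000025434.19, chr11:47248300-47269033, plus strand) shares 607 bases with ACP2, a lysosomal phosphatase gene that had 782 to 1046 counts per library, far above the counts of NR1H3. NR1H2 (ENSG00000131408.15, chr19:50329653-50383388, plus strand) overlaps NAPSA and NAPSB among others, which had at most 7 and 0 counts. Of the other members, ABCA1 overlaps an antisense lncRNA that had at most 1 count.

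APOE and SMPDL3A, both known as LXR targets in macrophages, did not pass the test in either direction. APOE (ENSG00000130203.10, chr19:44905791-44909393, plus strand) was counted 96, 48 and 67 times with ACM against 91, 69 and 47 times with UCM, or 3.64 ± 0.93 CPM against 3.59 ± 0.79 (SD, n = 3). The groups overlapped throughout, with replicate 1 the highest in both media. Its log2 FC was 0.02 (95% interval -0.56 to 0.60, adjusted p = 0.975 from edgeR), and the sign turned with TPM (-0.06). SMPDL3A (ENSG00000172594.13, chr6:122789049-122809720, plus strand), which encodes a secreted phosphodiesterase, was counted 33, 31 and 37 times with ACM against 39, 40 and 30 times with UCM. The 1.78 ± 0.22 CPM in ACM and 1.92 ± 0.21 in UCM overlapped (SD, n = 3), and the log2 FC was -0.11 (95% interval -0.73 to 0.50, adjusted p = 0.854 from edgeR). For APOE the upper bound of 0.60 lies under the lower bound of 2.67 for ABCA1, and the same holds for the upper bounds of ABCA7, NR1H2, NR1H3 and SMPDL3A, none of which exceeds 0.95.

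**Figure D2:**
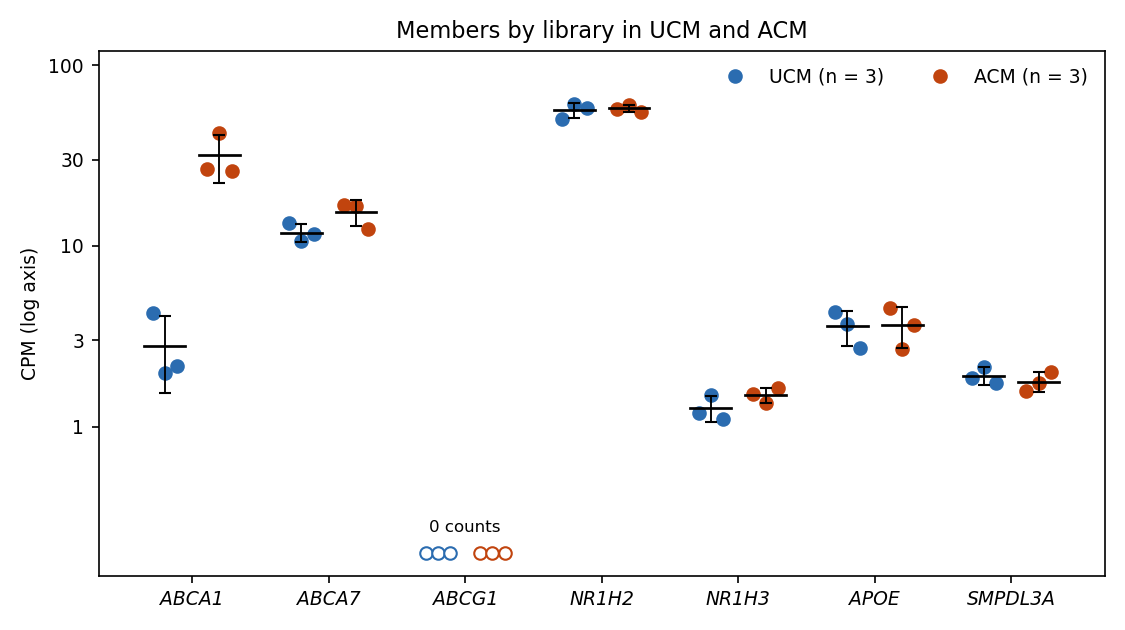
CPM of the 7 members in each library, on a log axis, with UCM in blue and ACM in orange, the horizontal line at the mean and the bars at 1 SD (n = 3 each). ABCA1 is the member whose groups are apart, at 31.6 against 2.80 CPM, and the open circles at the bottom mark ABCG1 with 0 counts in every library.

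Of the 7 members, 6 could be tested, and at an adjusted p of 0.05 the medium raised 1 of them and lowered 0. At the same threshold 3.35% of all genes tested were higher and 2.21% lower, 5.56% in either direction. With the unadjusted p-value and a log2 FC of at least 0.58 the members' counts were again 1 and 0, against 4.12% and 1.71% of all genes. The p-value of ABCA7 passed unadjusted, but its log2 FC lay under 0.58. All 3 ACM values of CPM lay above all 3 UCM values in 1 member, against 13.9% of all genes tested, and below them in 0 members, against 15.1%. The median log2 FC of the 6 tested members was 0.14, and that of all genes tested was -0.01.

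Ordered by TPM, a scale that allows levels of different genes to be compared, ABCA1 was the lowest detected member in UCM and stood in the middle of the members in ACM. In UCM, mean TPM fell from NR1H2 (57.3 ± 4.84) through APOE (6.20 ± 1.80), ABCA7 (5.39 ± 1.26), NR1H3 (2.71 ± 0.98) and SMPDL3A (1.88 ± 0.23) to ABCA1 (0.49 ± 0.22) and ABCG1 (0). There APOE and ABCA7 overlapped, as did NR1H3 and SMPDL3A, while ABCA1 lay below SMPDL3A in every library. In ACM the order was NR1H2 (56.9 ± 0.87), ABCA7 (8.003 ± 0.88), APOE (5.86 ± 1.45), ABCA1 (4.67 ± 1.00), NR1H3 (2.72 ± 0.54), SMPDL3A (1.81 ± 0.17) and ABCG1 (0), all as SD with n = 3. ABCA1 there overlapped APOE, which overlapped ABCA7, and lay apart from NR1H3 below it. ABCA7 exceeded ABCA1 by 8.99 to 13.6 times in UCM and by 1.40 to 2.28 times in ACM, ratios of TPM that did not overlap between the media. How often such ratios separate for other pairs of genes was not counted.

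Of the receptors' partners, RXRA and RXRB were detected and neither had an adjusted p at or below 0.05. RXRA, the partner most cells use, stood at 20.5 to 22.1 TPM in ACM and 18.9 to 23.6 in UCM, and its log2 FC of 0.01 (edgeR, adjusted p = 0.953) turned negative when UCM replicate 1 was left out (-0.07). RXRB had 48.2, 48.2 and 42.8 CPM in ACM and 37.4, 40.1 and 37.5 in UCM. All ACM values thus lay above, as in 13.9% of all genes tested. The RXRB log2 FC of 0.28 had an adjusted p of 0.0804 from edgeR. RXRG had 0 counts in all 6 libraries. At an adjusted p of 0.05, 3.35% of all genes tested were higher and 2.21% lower. Of 14 partners and coregulators, 13 were tested, 0 passed as higher and 1 as lower, with a median log2 FC of -0.002. The lower one was NCOA1, a steroid receptor coactivator, at -0.48 (adjusted p = 0.0484 from edgeR), a call that was lost when any of ACM replicates 1, 2 and 3 or UCM replicates 2 and 3 was left out (adjusted p 0.067 to 0.211). In all, the NCOA1 call was lost under 11 of 17 alternatives, among them RLE size factors (adjusted p = 0.0528), upper-quartile factors (0.0512), limma-trend on either TPM scale (0.189 and 0.191) and effective lengths as offsets (0.129).

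Other genes known as LXR targets moved in both directions. Of 22 such genes, 7 had 0 counts in all libraries and 11 were tested, with a median log2 FC of 0.24. Of the 11 tested, 2 passed as higher, 1 as lower and 8 did not pass. Among all genes tested, 3.35% passed as higher and 2.21% as lower. RNF145, a ubiquitin ligase of the endoplasmic reticulum that acts on sterol synthesis, rose from 131.5, 119.1 and 121.7 CPM in UCM to 331.8, 437.0 and 360.3 in ACM (log2 FC 1.60, SE 0.10, adjusted p = 0.000306 from edgeR). GRAMD1B, a carrier that moves cholesterol from the plasma membrane inwards, rose from 2.08, 2.20 and 2.51 CPM to 7.27, 15.4 and 8.43 (log2 FC 2.19, SE 0.30, adjusted p = 0.0054 from edgeR). As with ABCA1, ACM replicate 2 was the highest library for both genes. The groups did not overlap, with ACM above as in 13.9% of all genes tested. SCD, the stearoyl-CoA desaturase and a target of both LXR and SREBP1, fell from 819.5, 1036 and 1050 CPM to 377.5, 487.2 and 394.3 (log2 FC -1.21, SE 0.13, adjusted p = 0.00232 from edgeR). SREBF1, through which LXR is known to act on fatty acid synthesis, lay at 0.24 (adjusted p = 0.0583), and PLTP, which transfers phospholipid between lipoproteins, at 0.42 (adjusted p = 0.0832). LPCAT3 was at 0.27 (adjusted p = 0.161), MYLIP, a ubiquitin ligase, at -0.38 (adjusted p = 0.245), and FASN at -0.16 (adjusted p = 0.161). EEPD1 was at -0.57 (adjusted p = 0.0834) and MERTK at -0.23 (adjusted p = 0.703), all on the log2 scale from edgeR.

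**Figure D3:**
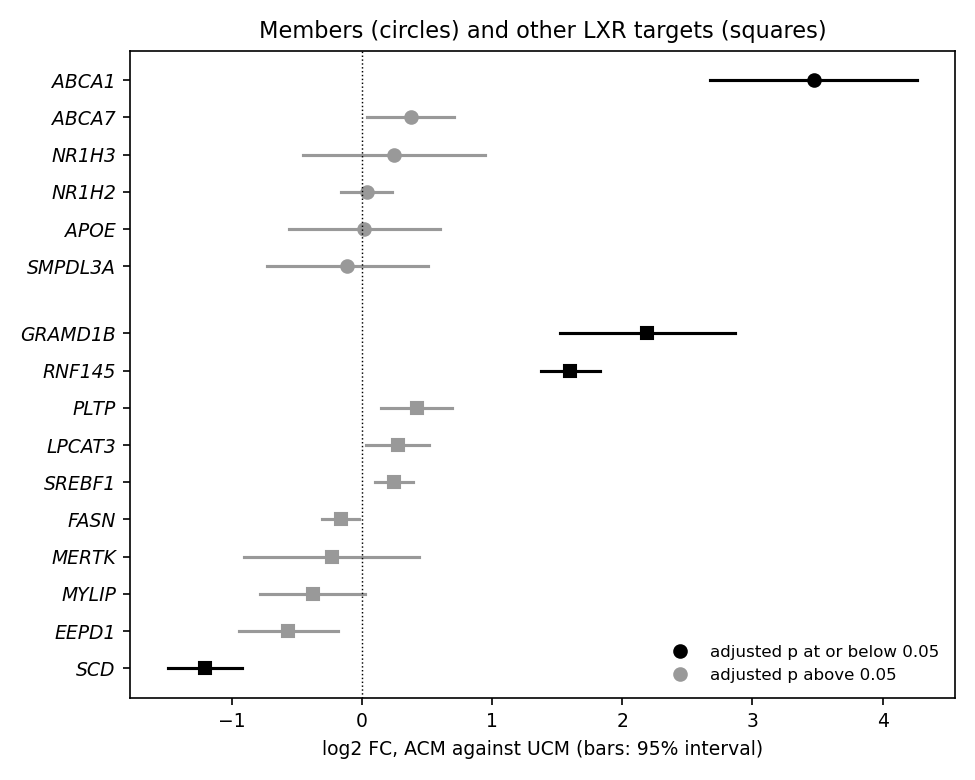
log2 FC of ACM against UCM for the 6 tested members (circles) and 10 of the 11 other LXR targets tested (squares), with bars for the 95% interval and black symbols for an adjusted p at or below 0.05. ABCA1 at 3.47, GRAMD1B at 2.19 and RNF145 at 1.60 lie to the right, SCD at -1.21 lies to the left, and the intervals of NR1H2, NR1H3, APOE and SMPDL3A span 0.

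The promoters of these targets were read in the same way as that of ABCA1, and the closest DR4 windows of the genes that passed are shown beside it. Entries were found for RNF145 and SCD.
ABCA1: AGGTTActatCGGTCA
RNF145: GGGTTActgtAGTTCA
SCD: TGGCAAcggcAGGACG
RNF145 has 5 listed promoters, 2 of which held a window with 3 mismatches. The one shown (chr5:159208158-159208173) is the first of these in the list and began 100 bases before its start. The other, CGCTCAgcctGGGTCA (chr5:159207901-159207916), was equally close to the element and looks less like that of ABCA1. The SCD window (chr10:100347008-100347023) had 5 mismatches. Windows with at most 3 mismatches occurred in 18.6% of all promoters searched, so a window like that of RNF145 is common, and one like that of ABCA1 less so at 2.34%. These shares are per promoter, and a gene with 5 promoters has more chances of a match.

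Genes that make or clear oxysterols, the ligands of LXR, were mostly near the limit of detection. Of 8 such genes, 2 were tested. CH25H, the cholesterol 25-hydroxylase, had 0 counts in 5 libraries and 2 in UCM replicate 3. CYP27A1 and CYP46A1, which hydroxylate cholesterol on its side chain, had at most 6 counts. HSD3B7, a bile acid enzyme that acts on hydroxylated sterols, rose by 0.32 on the log2 scale (adjusted p = 0.0384 from edgeR). This call was lost without any 1 of ACM replicates 2 and 3 and UCM replicates 2 and 3, with adjusted p from 0.084 to 0.150, and also on both TPM scales (0.0917 and 0.0907) and with effective lengths as offsets (0.0802).

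The counterpart of efflux, the SREBP2 pathway of uptake and synthesis, was represented by 4 reference genes, and all 4 were lower in ACM. Of all genes tested, 2.21% were lower at an adjusted p of 0.05. SREBF2 itself, which encodes SREBP2, fell by 0.61 on the log2 scale (adjusted p = 0.00377 from edgeR). INSIG1, which holds SREBP in the endoplasmic reticulum, fell by 1.87 (adjusted p = 0.00302 from edgeR). ABCA1 was higher in the medium in which both were lower, with no overlap between the media for any of the 3 genes. Such separation is common here, with ACM above in 13.9% of all genes tested and below in 15.1%. Of 16 genes of sterol storage and trafficking, 14 were tested, 0 passed as higher and 1 as lower, with a median log2 FC of 0.07. That gene was STARD4, a sterol carrier and SREBP2 target, at -1.26 (adjusted p = 0.00615 from edgeR).

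Other nuclear receptors known to act on ABCA1, and the wider ABCA family, showed smaller differences than ABCA1. Of 6 genes for peroxisome proliferator-activated and retinoic acid receptors, 5 were tested and 0 passed in either direction (edgeR), although PPARA at 0.49 and PPARD at 0.27 had unadjusted p-values of 0.00821 and 0.00824 (both adjusted p = 0.0865). Of 10 other ABCA genes, 5 were tested, 2 passed as higher and 0 as lower, with a median log2 FC of 0.61. Over all genes tested, 3.35% passed as higher and 2.21% as lower. ABCA3, a phospholipid transporter known from lung surfactant, rose from 83.7, 93.2 and 94.3 CPM in UCM to 131.6, 144.6 and 137.6 in ACM (log2 FC 0.61, SE 0.07, adjusted p = 0.00232 from edgeR). ABCA10 rose by 1.73 (SE 0.41, adjusted p = 0.0378 from edgeR) from 7 to 15 counts in UCM to 28 to 44 in ACM. ABCA10 has close relatives among its neighbours, between which the authors' counting could share reads, and its call was lost without ACM replicate 2 or 3 or UCM replicate 2 or 3 (adjusted p 0.0796 to 0.169), and also on both TPM scales (0.0842 and 0.0765) and with effective lengths as offsets (0.0789).

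The genes whose profile over the libraries lay closest to that of ABCA1 were ANGPTL4, TNFAIP2, CXCL8, C3 and IL6. Likeness was measured as the root mean square distance between log2 CPM profiles over the 6 libraries, each profile centred on its own mean, among the 13349 tested genes that averaged 1 CPM or more. The nearest was ANGPTL4, a secreted inhibitor of lipoprotein lipase, at 0.33, with 222.5, 351.8 and 196.4 CPM in ACM and 29.7, 26.02 and 27.4 in UCM. TNFAIP2 followed at 0.43, the chemokine gene CXCL8 at 0.46, the complement gene C3 at 0.47 and the cytokine gene IL6 at 0.50. In all 5, as in ABCA1, ACM replicate 2 was the highest library, and UCM replicate 1 was the highest of the UCM libraries, a likeness that the measure itself selects. These are descriptions over 6 libraries that share depth and replicate structure, and CXCL8 (adjusted p = 0.104) and C3 (adjusted p = 0.051) did not themselves pass edgeR's test between the media.

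**Figure D4:**
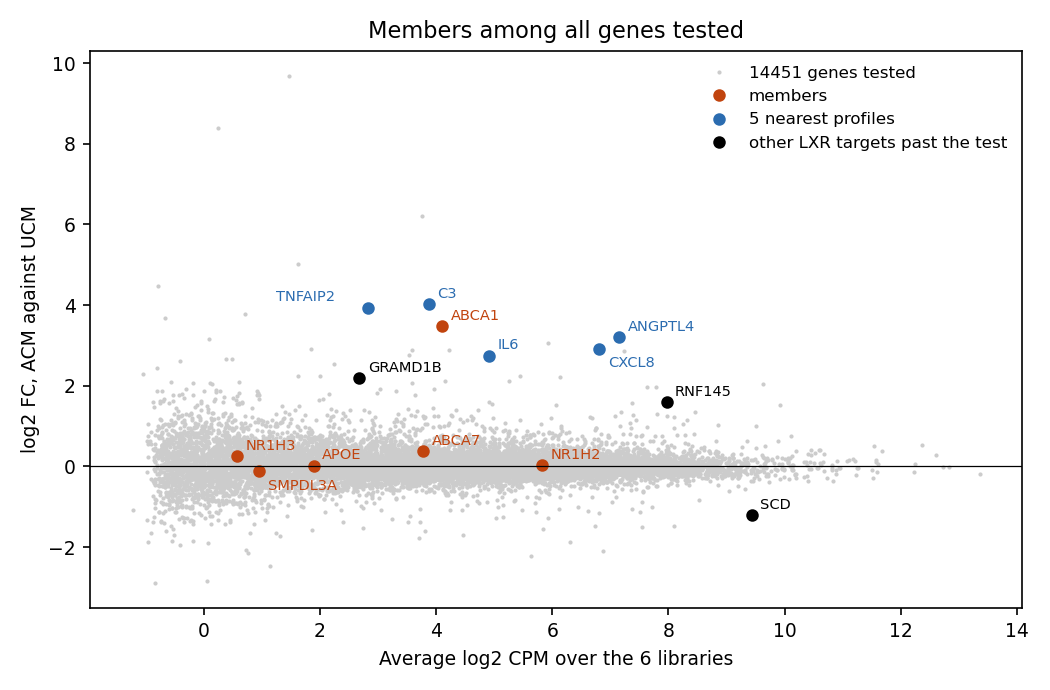
log2 FC of ACM against UCM plotted against the average log2 CPM for all 14451 genes tested (grey), with the 6 tested members in orange, the 5 nearest profiles in blue and the 3 other LXR targets that passed the test in black. ABCA1 lies at 3.47 among its nearest profiles and away from the other members, which lie between -0.11 and 0.37 within the bulk of genes.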

How the data were processed

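RNA-seq was carried out on 3 ACM and 3 UCM samples of BT-549 cells, grouped by the sample titles. Per the labels and the study's methods, the authors read polyA-enriched libraries in pairs, trimmed them with Trim Galore, aligned them to GRCh38/hg38 with STAR and quantified them with RSEM. Tool versions, the gene annotation and strand settings are not given in the sources used here. The expected counts that the authors deposited are RSEM estimates per gene, not scaled for depth, with reads that fit several genes shared between them. The TPM values that the authors deposited are scaled by effective length and to each library's sum, and the deposited effective lengths are in bases. A deposited table of the authors' own comparison, with fold changes, standard errors and p-values, was not used.

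Expected counts were rounded and tested with edgeR 4.0.16 in R 4.3.3 (filterByExpr, TMM, the quasi-likelihood test with robust dispersion, and a model of ACM against UCM without covariates), and p-values were adjusted by Benjamini-Hochberg over the 14451 genes tested, with a call at an adjusted p at or below 0.05. Standard errors and 95% intervals belong to the log2 FC of that fit. Per-sample CPM values use the TMM library sizes. TPM and effective lengths of the members were compared by exact two-sided permutation tests of means on the log2 scale, with 1 added to TPM. The members and gene lists were chosen with earlier results of these data known, and no test was run over a list. Named genes were all members, the listed genes past the threshold, the RXR and SREBP genes, overlapping genes and the 5 profiles nearest to ABCA1. Other listed LXR targets, oxysterol enzymes, PPARA and PPARD were named after their values were seen. Symbols, positions and overlaps came from GENCODE 44 (GRCh38), in which 61547 of the 63140 identifiers with their versions were found, and promoters from RefSeq (GRCh38.p14). The fit was tested on simulated data. Depth was 17135270 to 21053214 counts per library, and intervals for a count of 0 cover counting error only. Alternatives were other size factors, DESeq2 1.42.0, other filters, limma-trend 3.58.1 on log2(TPM + 1) and log2(TPM + 0.1), effective lengths as offsets, a replicate block and leaving out libraries. The largest correlation of deviations between same-numbered samples was 0.318. Values of some listed genes are not reported here.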

Additional observations from a re-analysis of the deposited data

How the results depend on the processing

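ABCA1 remained higher in ACM and past the threshold under all 17 alternatives, with a log2 FC from 1.92 to 4.05 and an adjusted p up to 0.0286, and it was the 1 member higher, with 0 lower, in each. The number of genes higher or lower (484 and 320) moved to 1045 and 679 with a filter of at least 1 count in total, 230 and 132 with limma-trend on log2(TPM + 1), 234 and 138 on log2(TPM + 0.1), 272 and 134 with effective lengths as offsets, and 74 and 25 without both replicates 2. Without both replicates 1, an alternative chosen after seeing the data, 1017 and 726 genes passed, and with 1 library left out 125 to 738 and 62 to 572, lowest without UCM replicates 2 and 3 and highest without UCM replicate 1. The cause of these shifts was not tested. The median of the other LXR targets was 0.09 with DESeq2, 0.10 with the filter of at least 1 count, and 0.18 with either TPM setting. Signs turned for genes near 0, none of them past the threshold. NR1H2 was at -0.007 on both TPM scales, -0.023 without both replicates 1, and -0.032 (without UCM replicate 1) to 0.098 with 1 library left out. APOE was at -0.062 and -0.070 on the TPM scales, -0.056 with offsets, -0.012 without both replicates 1, and -0.174 (without ACM replicate 1) to 0.19 with 1 library left out, also negative without UCM replicate 3 (-0.126). RXRA was at -0.083 without both replicates 1 and -0.074 (without UCM replicate 1) to 0.091 with 1 library left out, and the SMPDL3A effective length at -0.124 to 0.022 (without ACM replicate 1). NR1H3, APOE and SMPDL3A had at most 96 counts per library, and a change within their wide intervals was not detectable here.

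With the replicate number as a block, 909 genes were higher and 703 lower, and ABCA1 stood at 3.46 (adjusted p = 0.0154). RXRB passed under the block (adjusted p = 0.0474) and CD68 did not (adjusted p = 0.0763). The labels do not say that a number marks a shared day or batch, the deviations of same-numbered libraries correlated at 0.318, 0.0347 and 0.177, and 4 of 6 libraries correlated best with their own number, so the samples were treated as sharing only a number.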
